A study of Mus musculus with 10 samples.

Results

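The aldo-keto reductases examined here are 10 genes, Akr1b7, Akr1b3, Akr1b8, Akr1a1, Akr7a5, Akr1c6, Akr1c12, Akr1c13, Akr1c14 and Akr1d1, of the 17 genes with an Akr symbol among the 55401 gene rows of the count table. They were picked by symbol with their difference between the genotypes already known, so that difference is described for them without a test. RNA was sequenced from E18.5 livers of female fetuses, 5 wild-type (WT) and 5 Mir483Pat-KO littermates. Mir483Pat-KO fetuses inherited from the father a constitutive deletion of Mir483, a microRNA gene inside an intron of Igf2 whose paternal copy is the one expressed. The deletion was made by Cre in embryonic stem cells of C57BL/6N origin (the JM8.F6 line). Cells of 2 clones were injected into blastocysts, and the mice were kept on a C57BL/6J background. Both groups were otherwise untreated, and nothing in the labels ties libraries of the 2 groups to the same litter.

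Aldo-keto reductases are soluble enzymes, built as a barrel of alternating strands and helices, that use NADPH to reduce aldehydes and ketones to alcohols. The Akr1b branch reduces sugars and lipid-derived aldehydes, Akr1a1 and Akr7a5 reduce small and xenobiotic aldehydes, the Akr1c branch acts on steroids and prostaglandins, and Akr1d1 reduces the steroid ring during bile acid synthesis. Liver is a main site of bile acid synthesis and of steroid breakdown.

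The 2 mature microRNAs of the deleted gene are shown because their seeds, the bases that pair with targets, were searched in the aldo-keto reductase transcripts. They lie at chr7:142654932-142654952 and chr7:142654968-142654989 on the minus strand (RefSeq, GRCm38.p6), and the capitals mark the seed, bases 2 to 8.
miR-483-3p: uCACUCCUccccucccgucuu
miR-483-5p: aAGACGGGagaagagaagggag
The site complementary to the miR-483-3p seed, AGGAGTG, occurred in the annotated 3′ untranslated region (UTR) of 9.58% of 21124 protein-coding genes. Of the 10 genes only Akr1c14 held one, at chr13:4089702-4089724 on the plus strand, and of the other Akr genes Akr1c19 (chr13:4251179-4251201, plus) and Akr1e1 (chr13:4591325-4591347, minus) held one each. Their windows on the transcript strand, with the site in capitals, follow (GRCm38, GENCODE transcripts).
Akr1c14: cacatgtgAGGAGTGaccaagag
Akr1c19: ttctatatAGGAGTGctatttga
Akr1e1: gagctcttAGGAGTGtcaggaaa
The genes with a site had the longest 3′ UTRs of the Akr genes, at 4723 bases for Akr1c19, 2506 for Akr1e1 and 1698 for Akr1c14. The share over all genes was not matched for length. The 3′ UTR of Akr1b7, 254 bases long, held no such site. The site of miR-483-5p, CCCGTCT, was in none of the 17 Akr 3′ UTRs and in 2.47% of all genes. A match is only a run of letters and does not show that the microRNA binds there.

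Library totals ranged from 10831350 to 14765880 counts. Mir483 itself had 10 to 22 counts in each WT library and 0 in each Mir483Pat-KO library, as the labels say. The hepatocyte markers, 14 genes such as Alb and Ttr, summed to 198134 to 223676 counts per 1000000 (CPM) in WT and to 175735 to 206038 CPM in Mir483Pat-KO. The erythroid markers summed to 16906 to 21656 CPM in WT and to 19774 to 27681 CPM in Mir483Pat-KO. In bulk tissue, fewer hepatocytes and less RNA per hepatocyte cannot be told apart. Values rescaled to the mean log2 CPM of the hepatocyte markers are therefore given beside the chosen genes and the lists. Each label carries an identification number, and these numbers formed a lower and an upper range, which held 4 and 1 WT libraries and 2 and 3 Mir483Pat-KO libraries, and the labels do not say what these numbers mark.

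Per kb of transcript, Akr1a1 and Akr1b7 were the most abundant aldo-keto reductases of WT fetal liver. Dividing CPM by the longest coding transcript gave Akr1a1 165 ± 8.25 CPM per kb and Akr1b7 100.4 ± 32.0 CPM per kb (SD, n = 5). Dividing by the union of all annotated exons placed Akr1a1 at 85.2 ± 4.26 CPM per kb, within the spread of Akr1b7, because the Akr1a1 exon union is 2750 bases and its longest coding transcript 1420 bases. By exon union Akr1d1 followed at 36.2 ± 3.77 CPM per kb, Akr1c13 at 23.0 ± 1.95 and Akr7a5 at 17.9 ± 1.93. By that length Akr7a5, Akr1c6, Akr1c12 and Akr1c14, between 17.9 and 15.8 CPM per kb, had overlapping ranges and could not be ranked against their neighbours. By longest coding transcript Akr7a5 at 25.0 CPM per kb lay above Akr1c12 at 16.7 and Akr1c14 at 16.0 without overlap. The range of Akr7a5 then overlapped with those of Akr1c13 at 26.2 and Akr1c6 at 25.1. Akr1b8 was at 5.11 ± 0.910 CPM per kb and Akr1b3 at 1.25 ± 0.175, although Akr1b3 was at 7.57 CPM per kb when its longest coding transcript was used. In Mir483Pat-KO livers Akr1b7 was at 36.8 ± 9.87 CPM per kb, below Akr1a1 by either length, and its range there overlapped with that of Akr1d1 at 29.6 ± 3.40 CPM per kb of exon union.

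**Figure D1:**
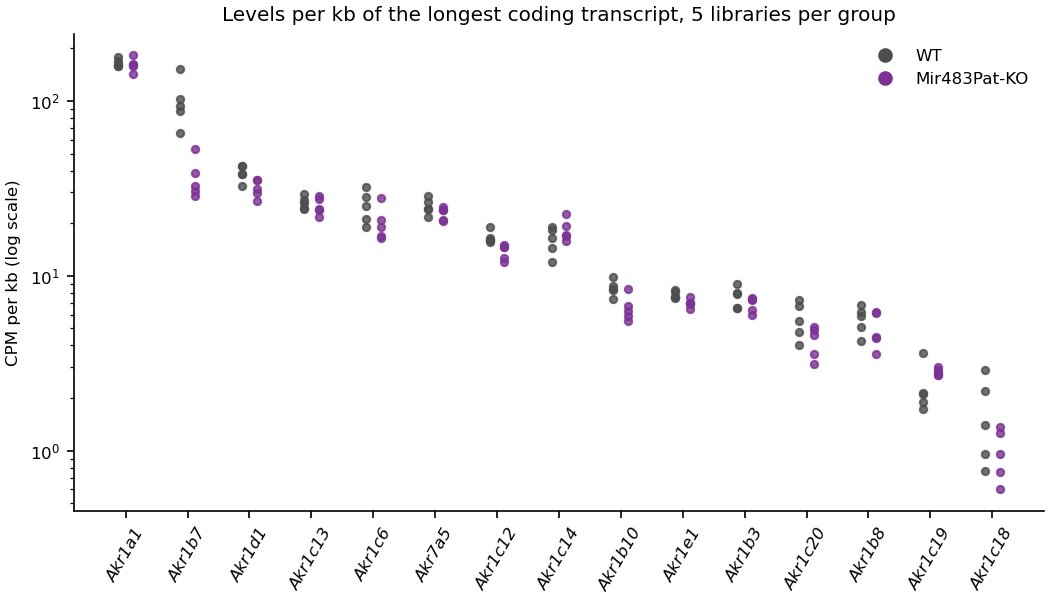
Level of the 15 aldo-keto reductase genes that passed the low-count filter, in CPM per kb of the longest coding transcript on a log axis, with 1 point per library (5 WT, 5 Mir483Pat-KO). Akr1a1 and Akr1b7 sit at the top in WT, and the 5 Mir483Pat-KO points of Akr1b7 lie below its lowest WT point.

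Akr1b7, an aldose reductase-like enzyme that reduces lipid-derived aldehydes and is known from the vas deferens and adrenal cortex, was lower in every Mir483Pat-KO liver. The 5 WT libraries held 195, 84.2, 131, 120 and 113 CPM. The 5 Mir483Pat-KO libraries held 68.0, 49.6, 36.6, 42.0 and 39.4 CPM. The groups did not overlap, and the lowest WT library stood above the highest Mir483Pat-KO library. The means were 129 ± 41.0 and 47.1 ± 12.6 CPM (SD, n = 5 each), so 36.6% of the WT level remained, and the log2 fold change was −1.45 (standard error, SE, 0.19). Rescaled to the hepatocyte markers it was −1.30, and with WT replicate 1, the highest library, left out it was −1.26. In the lower identification range alone, 4 WT libraries at 84.2 to 195 CPM stood against 2 Mir483Pat-KO libraries at 49.6 to 68.0 CPM, with a log2 fold change of −1.17. Of the 14098 genes tested 0.872% were called lower (more than 1.5-fold down at an adjusted p under 0.05) and 0.355% higher, 1.23% in all (123 and 50 genes, or 82 and 298 after rescaling to the hepatocyte markers). No call is given for Akr1b7, which was chosen for its fall.

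Markers of other organs that express Akr1b7 or its relatives were examined too. The adrenal cortex markers summed to 208 to 317 CPM in WT and 246 to 297 in Mir483Pat-KO, nearly all of it Hsd3b1, with Nr0b1 at 0 and Nr5a1 and Cyp21a1 at 1 count each over all libraries. The intestine markers summed to 162 to 239 CPM in WT and 118 to 154 in Mir483Pat-KO, most of it Tff3, with the defining Cdx1 and Cdx2 at 0, and 2 of their 5 tested genes passed as lower at an adjusted p under 0.05, as did 2.76% of all genes. The part of these markers in the level of Akr1b7 was not tested.

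**Figure D2:**
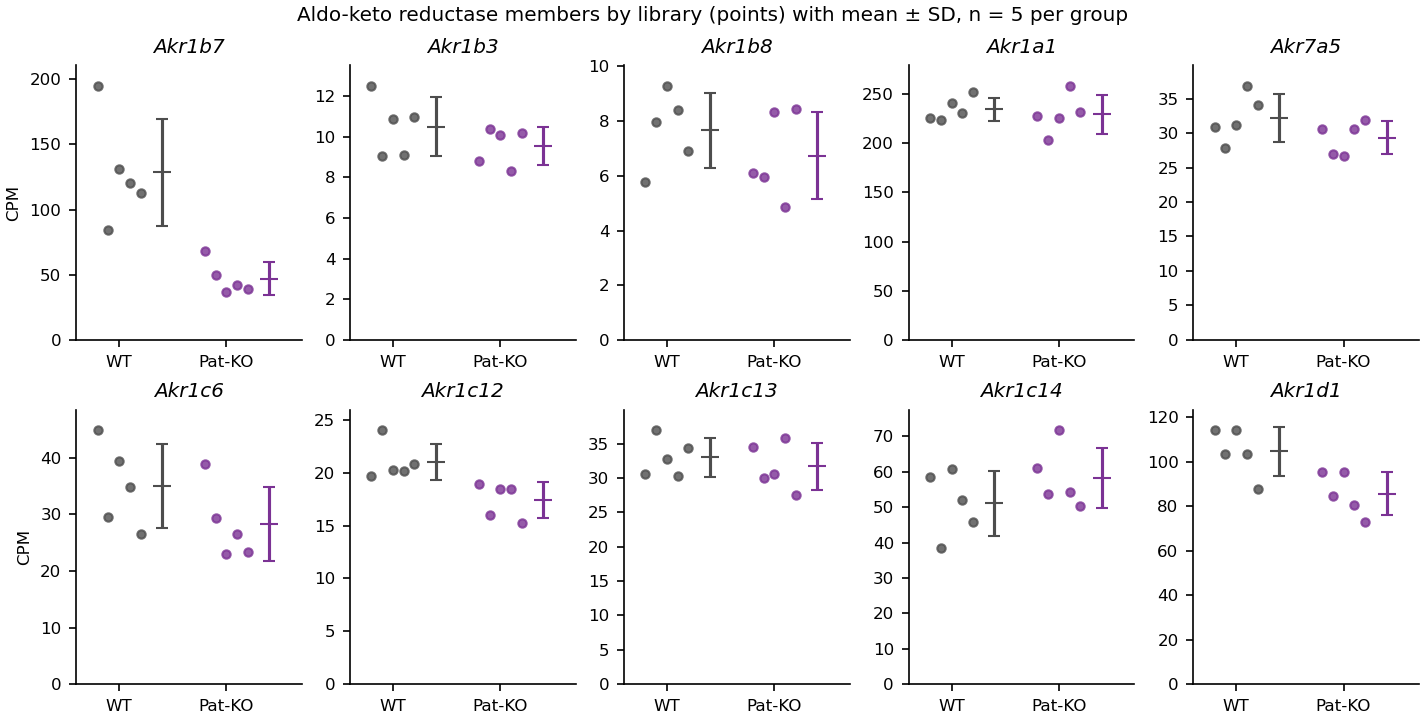
CPM of each of the 10 genes by library, with 1 point per library and the mean ± SD beside it, axes starting at 0 (n = 5 per group; Pat-KO is Mir483Pat-KO). Akr1b7 averaged 129 CPM in WT and 47.1 in Mir483Pat-KO without overlap, while the points of the other 9 genes overlap or, for Akr1c12, nearly touch.

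Akr1b7 lies on chromosome 6 beside its closest relatives, in the order Akr1b3, Akr1b8, Akr1b10 and Akr1b7. Over the aligned coding sequence Akr1b7 shared 89.2% of its bases with Akr1b10, 84.8% with Akr1b8 and 72.0% with Akr1b3. The 250 bases before the annotated start of the 3 most alike genes are printed so that they can be compared (RefSeq, GRCm38.p6, plus strand, coding strand shown). Positions count back from the RefSeq start, and since the GENCODE genes start earlier, the last 27 to 29 bases of these windows lie inside the GENCODE first exon. Capitals mark matches on either strand to the motifs searched. These were the nuclear receptor motif AGGTCA and the longer NR5A site AAGGTCA that contains it, the core of the antioxidant response element TGACNNNGC, the C/EBP core TTGCNNAA, the TATA box TATAAA, the CCAAT box, and the GC box GGGCGG.
Akr1b8, chr6:34353896-34354145: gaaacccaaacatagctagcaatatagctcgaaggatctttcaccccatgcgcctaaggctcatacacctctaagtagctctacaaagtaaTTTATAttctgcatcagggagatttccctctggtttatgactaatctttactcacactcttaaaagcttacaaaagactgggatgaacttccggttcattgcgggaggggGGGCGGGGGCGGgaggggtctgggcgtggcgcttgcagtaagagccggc
Akr1b10, chr6:34383997-34384246: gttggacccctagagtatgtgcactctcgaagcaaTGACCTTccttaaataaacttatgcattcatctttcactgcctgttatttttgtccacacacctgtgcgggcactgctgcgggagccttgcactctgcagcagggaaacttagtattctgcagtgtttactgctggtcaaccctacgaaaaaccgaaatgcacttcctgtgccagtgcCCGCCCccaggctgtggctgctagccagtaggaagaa
Akr1b7, chr6:34412112-34412361: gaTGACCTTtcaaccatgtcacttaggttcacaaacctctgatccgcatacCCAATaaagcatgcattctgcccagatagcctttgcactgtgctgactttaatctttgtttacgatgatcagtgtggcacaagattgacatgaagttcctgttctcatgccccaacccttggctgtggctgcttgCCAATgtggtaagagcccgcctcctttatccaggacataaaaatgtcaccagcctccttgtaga
Akr1b7 and Akr1b10 each held 1 copy of TGACCTT, which is the reverse complement of AAGGTCA, at positions −248 and −215 from the start. AAGGTCA was in 4.08% of 32851 promoter windows of this length and AGGTCA in 14.0%. Akr1b7 held 2 copies of CCAAT, a motif present in 33.8% of windows, at positions −199 and −64. Akr1b8 held neither AGGTCA nor CCAAT, and had 2 adjoining copies of GGGCGG, present in 32.7% of windows, and TATAAA on the minus strand, present in 12.4%.

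The 3 neighbours with similar sequence had far lower levels than Akr1b7 and smaller differences. Akr1b10, also aldose reductase-like, had 10.1, 12.1, 11.5, 11.4 and 13.5 CPM in WT and 11.5, 8.09, 9.27, 8.66 and 7.57 CPM in Mir483Pat-KO. Its groups overlapped through Mir483Pat-KO replicate 1. Its log2 fold change of −0.38 (SE 0.12) did not pass the quasi-likelihood test of edgeR (adjusted p = 0.0781), and it passed with Mir483Pat-KO replicate 1 left out (−0.49, adjusted p = 0.0234).

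Akr1b8, which reduces retinaldehyde and lipid aldehydes, had 5.77, 7.96, 9.30, 8.39 and 6.91 CPM in WT and 6.09, 5.95, 8.35, 4.87 and 8.42 CPM in Mir483Pat-KO. The groups were intermixed, with a log2 fold change of −0.18 (SE 0.17), which was −0.025 when rescaled to the hepatocyte markers and −0.39 in the lower identification range alone. Akr1b3, the aldose reductase that turns glucose to sorbitol, had 12.5, 9.05, 10.9, 9.09 and 11.0 CPM in WT and 8.82, 10.4, 10.1, 8.30 and 10.2 CPM in Mir483Pat-KO. These groups overlapped too, with a log2 fold change of −0.13 (SE 0.12) that was 0.03 when rescaled to the hepatocyte markers. Beyond the cluster, Bpgm, the red cell enzyme that makes bisphosphoglycerate, was higher in Mir483Pat-KO (242 against 296 CPM, log2 fold change 0.29, adjusted p = 0.0261), beside the higher erythroid marker sum given above. The other 2 genes tested within 300000 bases, Slc35b4 (0.05, adjusted p = 0.792) and Cald1 (0.02, adjusted p = 0.934), did not pass.

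Sequence shared between genes could move reads among them, since the rule for reads that match more than 1 gene is not given in the sources used here. Of all 50-base words in the annotated transcripts of Akr1b7, 15.8% also occurred in another gene, most of them in the antisense Gm13857. Gm13857 itself averaged 0.644 CPM in WT against 0.284 CPM in Mir483Pat-KO, and without knowledge of the strand setting its reads cannot be told apart from those of Akr1b7 in the overlap. For Akr1b8 and Akr1b10 the shared words were 2.90% and 1.18%, and for Akr1b3 they were 13.6%, most of them in a single other gene (12.8%). Akr1c12 and Akr1c13 were 96.2% identical over the coding sequence and shared 28.6% and 24.2% of their words with each other, so their separate values are less certain.

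Akr1a1 and Akr7a5, the aldehyde reductases outside the Akr1b branch, differed little between the groups. Akr1a1, which makes gulonate from glucuronate on the way to ascorbate, had 225, 224, 241, 230 and 252 CPM in WT and 228, 203, 225, 259 and 232 CPM in Mir483Pat-KO. The Mir483Pat-KO libraries lay on both sides of the WT range, with a log2 fold change of −0.03 (SE 0.071) that was 0.13 when rescaled to the hepatocyte markers. Akr7a5, which reduces aflatoxin aldehyde and succinic semialdehyde, had 30.9, 27.8, 31.1, 36.9 and 34.1 CPM in WT and 30.5, 26.9, 26.7, 30.6 and 31.9 CPM in Mir483Pat-KO. Its groups overlapped, and its log2 fold change of −0.13 (SE 0.088) was 0.02 both when rescaled to the hepatocyte markers and after removal of GC and length trends.

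Akr1d1, which performs the ring reduction of bile acid intermediates and of steroid hormones in liver, was the third most abundant of the 10 genes per kb. It had 114, 104, 114, 104 and 87.7 CPM in WT and 95.3, 84.5, 95.6, 80.6 and 72.7 CPM in Mir483Pat-KO. Of the Mir483Pat-KO libraries 3 lay below the whole WT range and the other 2 overlapped with WT replicate 5. The log2 fold change was −0.29 (SE 0.090), −0.14 when rescaled to the hepatocyte markers and −0.43 after removal of GC and length trends. Akr1d1 belongs to the tenth of genes with the lowest GC content, whose median log2 fold change was 0.20.

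Of the 4 chosen Akr1c genes, clustered on chromosome 13, 3 had a log2 fold change below 0 and 1 above, or 2 below and 2 above when rescaled to the hepatocyte markers and all 4 below after removal of GC and length trends. Akr1c6, an estradiol dehydrogenase of liver, had 44.9, 29.5, 39.4, 34.9 and 26.5 CPM in WT and 39.0, 29.3, 23.0, 26.5 and 23.4 CPM in Mir483Pat-KO. Its groups overlapped widely, with a log2 fold change of −0.31 (SE 0.15), or −0.17 rescaled and −0.13 in the lower identification range alone. That value was −0.44 after removal of GC and length trends and −0.46 without Mir483Pat-KO replicate 1. Akr1c12 had 19.7, 24.0, 20.2, 20.2 and 20.9 CPM in WT and 19.0, 16.0, 18.46, 18.4 and 15.2 CPM in Mir483Pat-KO. Its groups did not overlap, with 19.0 and 19.7 CPM as the nearest values. The log2 fold change of Akr1c12 was −0.27 (SE 0.091), −0.12 rescaled and −0.37 after removal of GC and length trends.

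Akr1c13, the near copy of Akr1c12, had 30.6, 37.0, 32.8, 30.3 and 34.4 CPM in WT and 34.5, 30.0, 30.6, 35.9 and 27.5 CPM in Mir483Pat-KO. Its groups overlapped, and its log2 fold change of −0.06 (SE 0.088) was 0.10 when rescaled to the hepatocyte markers and −0.15 after removal of GC and length trends. Akr1c14, a dehydrogenase that inactivates dihydrotestosterone, had 58.5, 38.4, 60.7, 52.1 and 45.7 CPM in WT and 61.1, 53.8, 71.8, 54.4 and 50.2 CPM in Mir483Pat-KO. It was the only one of the 10 genes with a log2 fold change above 0, at 0.19 (SE 0.12), and the groups overlapped. It was 0.09 without Mir483Pat-KO replicate 3 and 0.10 without WT replicate 2. Its value was 0.34 when rescaled to the hepatocyte markers and −0.04 after removal of GC and length trends, and it too belongs to the tenth of genes with the lowest GC content. Akr1c14 carried the miR-483-3p seed site printed above.

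Of the 10 genes, all of which passed the low-count filter, 9 had a log2 fold change below 0 and 1 above, with a median of −0.16. Across all genes tested 49.1% were below 0 and the median was 0.0042. Rescaled to the hepatocyte markers, 5 of the 10 were below 0 and 5 above, with a median of −0.0020. The groups did not overlap for 2 of the 10, Akr1b7 and Akr1c12, both lower. Of all genes tested 3.26% were lower without overlap and 3.34% higher, 6.60% in all. Nothing is read from these counts, since the genes were chosen with their values known. Over the 19 alternatives the log2 fold change ran from −0.10 to 0.13 for Akr1a1, from −0.19 to 0.03 for Akr1b3, from −0.39 to −0.03 for Akr1b8 and from −0.19 to 0.02 for Akr7a5. It ran from −0.46 to −0.13 for Akr1c6, from −0.37 to −0.12 for Akr1c12, from −0.15 to 0.10 for Akr1c13, from −0.04 to 0.34 for Akr1c14 and from −0.43 to −0.14 for Akr1d1.

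The other Akr genes, which were not part of that choice, gave 5 tested genes and no call. Akr1c20, 92.3% identical to Akr1c6 over the coding sequence, averaged 7.56 CPM in WT against 5.72 CPM in Mir483Pat-KO (log2 fold change −0.41, SE 0.18, adjusted p = 0.184). Akr1c18, which inactivates progesterone, averaged 1.98 ± 1.06 CPM in WT against 1.18 ± 0.389 CPM in Mir483Pat-KO (−0.73, SE 0.35, adjusted p = 0.230). Akr1e1, which reduces anhydrofructose, averaged 27.0 and 24.2 CPM (−0.16, SE 0.073, adjusted p = 0.223). Akr1c19 averaged 13.4 and 16.5 CPM (0.30, SE 0.16, adjusted p = 0.266), and with WT replicate 2, its highest library at 21.2 CPM, left out it passed at 0.52 (adjusted p = 0.00680).

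At an unadjusted p under 0.05, 3 of these 5 genes would have passed the quasi-likelihood test of edgeR, as would 22.2% of all genes tested. Akr1cl, with 0 to 5 counts in each library, and Akr1c21, with 1 count in all, were too low to test. Of the carriers of a miR-483-3p seed site, Akr1c14 and Akr1c19 were above 0 and Akr1e1 was below, none by a tested call.

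**Figure D3:**
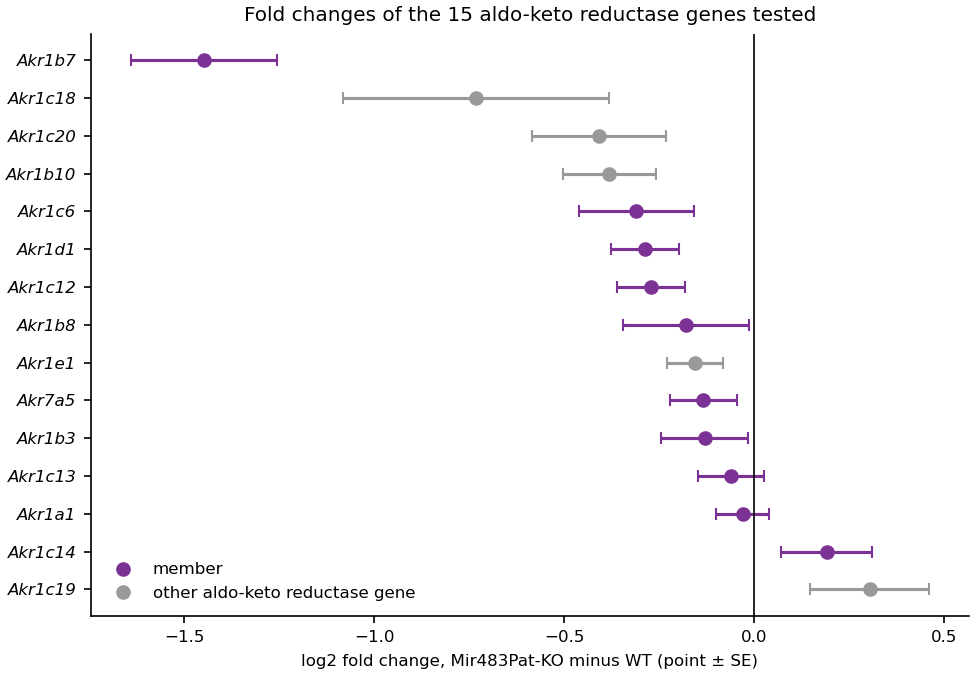
Log2 fold change of Mir483Pat-KO against WT with its SE for the 15 aldo-keto reductase genes tested, the chosen 10 in purple and the others in grey. Akr1b7 at −1.45 stands apart from the rest, which lie between −0.73 and 0.30.

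Summed over the 10 genes, the other 9 without Akr1b7 made 530 ± 22.3 CPM in WT against 496 ± 28.5 CPM in Mir483Pat-KO. Akr1b7 supplied 19.2% ± 4.41 of the sum in WT (14.4% to 26.4%) and 8.63% ± 1.97 in Mir483Pat-KO (6.70% to 11.5%). These shares did not overlap between the groups, but Akr1b7 was chosen with its fall known.

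Within each group, libraries with more Akr1b7 also had more of a few other transcripts. After the group means of log2 CPM were removed, Pearson's r with Akr1b7 over the 10 libraries was highest for Sc5d (0.980), an enzyme of cholesterol synthesis, and Abcb11 (0.967), the bile salt export pump. Med12l (0.928), Plppr1 (0.918) and Ints10 (0.906) followed, and the lowest were Luzp1 (−0.938), Gm15545 (−0.931) and Znrd1as (−0.903). Of 12549 genes compared, 9 reached an r of 0.9, and the median r was 0.014. These are descriptions over few libraries, and the same 2 libraries, WT replicate 1 and Mir483Pat-KO replicate 1, lay farthest out on Akr1b7.

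Without those 2 libraries r was 0.954 for Sc5d and 0.887 for Abcb11, and Spearman's rho over all 10 was 0.964 and 0.952. For Med12l, Plppr1 and Ints10 r was then 0.918, 0.732 and 0.671, and for Luzp1, Gm15545 and Znrd1as it was −0.861, −0.741 and −0.870. Abcb11 had 366, 243, 303, 292 and 270 CPM in WT and 226, 186, 166, 169 and 152 CPM in Mir483Pat-KO. Its groups did not overlap, and like Akr1b7 it was highest in replicate 1 of each group. Sc5d had 234, 136, 181, 178 and 160 CPM in WT and 197, 173, 124, 137 and 139 CPM in Mir483Pat-KO. Its groups overlapped (log2 fold change −0.20, adjusted p = 0.404). The identification ranges moved in part with these levels. Mir483Pat-KO replicates 1 and 2, of the lower range, were above replicates 3 to 5, of the upper range, for Akr1b7, Sc5d, Abcb11 and Akr1c6. WT replicate 5, the only WT library of the upper range, was below its group mean for each. But WT replicate 2, of the lower range, was below WT replicate 5 for Akr1b7, Sc5d and Abcb11, though not for Akr1c6. With means removed for each range within a group, which leaves 9 libraries, r was 0.983 for Sc5d, 0.957 for Abcb11 and 0.948 for Akr1c6. What else differed between the ranges was not tested.

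Among the aldo-keto reductases, Akr1c6 (r 0.893, rho 0.867), Akr1c18 (r 0.837, rho 0.794) and Akr1c20 (r 0.711, rho 0.830) varied most like Akr1b7. Without the 2 farthest libraries their r was 0.705, 0.723 and 0.845. For its cluster neighbours r was 0.390 for Akr1b3, 0.066 for Akr1b10 and −0.487 for Akr1b8, and without the 2 farthest libraries it was 0.360, −0.272 and −0.183. Within the groups taken singly, r was 0.828 in WT and −0.353 in Mir483Pat-KO for Akr1b3, and −0.727 and 0.703 for Akr1b10, over 5 libraries each. Over the 14 hepatocyte markers r ran from −0.348 (Hnf4a) to 0.569 (Ttr), with a median of 0.115, and without the 2 farthest libraries from −0.741 to 0.765. Over the 5 WT libraries their median r was −0.351, and over the 5 Mir483Pat-KO libraries it was 0.345, with ranges of −0.737 to 0.530 and −0.510 to 0.891.

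**Figure D4:**
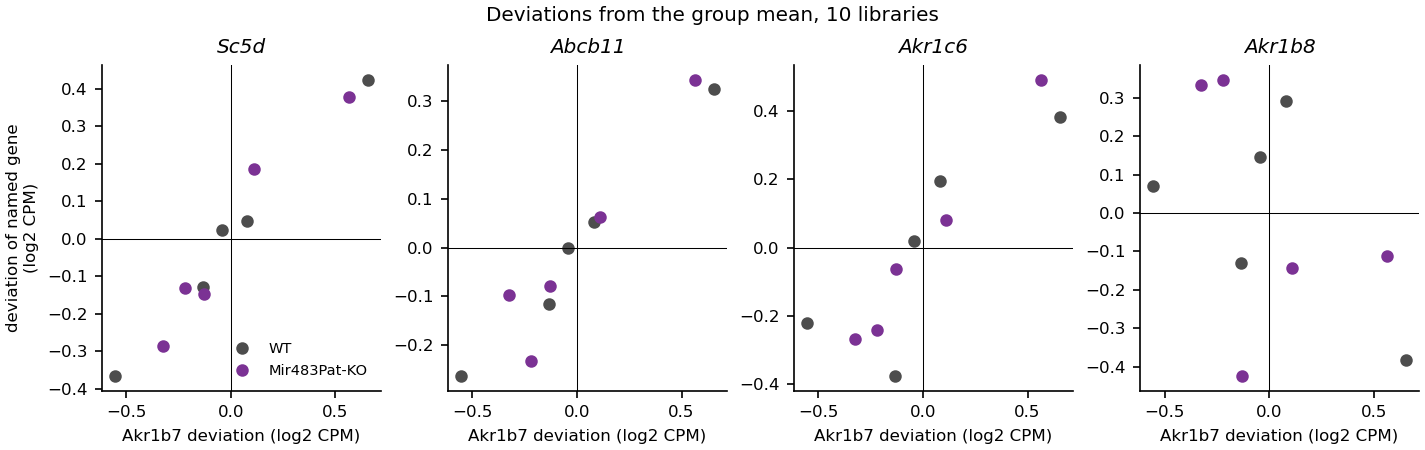
Deviation of each library from its group mean in log2 CPM, for Akr1b7 (horizontal axes) against Sc5d, Abcb11, Akr1c6 and Akr1b8 (vertical axes), with 1 point per library (5 WT, 5 Mir483Pat-KO). The points lie close to a line for Sc5d (r = 0.980) and Abcb11 (r = 0.967), spread for Akr1c6 (r = 0.893) and scatter for Akr1b8 (r = −0.487, or −0.183 without the 2 farthest libraries).

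The pathways around these enzymes were examined as 8 gene lists, written with earlier results of these data known. Of their 130 tested genes 27 were lower and 1 was higher at an adjusted p under 0.05 over all genes tested (edgeR quasi-likelihood test), and the median log2 fold change was −0.19. Across all 14098 genes 2.76% passed as lower and 2.43% as higher. Without Mir483Pat-KO replicate 4 the count of lower genes was 14, and in the lower identification range alone it was 1, Apoc3. The hepatocyte marker sum was lower in Mir483Pat-KO as well. Of its 14 genes 13 were below 0, with a median log2 fold change of −0.17, and 2 passed as lower. After rescaling to the mean log2 CPM of these markers 18 listed genes passed as lower and 10 as higher. The endothelial and mesenchymal markers summed to 997 to 1572 CPM in WT and to 900 to 1253 CPM in Mir483Pat-KO, with 12 of 14 genes below 0, a median log2 fold change of −0.19 and none passing. The part of these markers in the counts was not tested. Log2 fold changes and adjusted p-values below come from the same fit.

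Carbonyl metabolism, the alcohol, aldehyde and carbonyl dehydrogenases and reductases that share substrates with aldo-keto reductases, had 6 of 28 tested genes lower and none higher (median −0.15). Leaving out WT replicate 5, or Mir483Pat-KO replicate 2 or 4, brought the count to 3, and it was 2 after rescaling to the hepatocyte markers. Cbr1, a carbonyl reductase, fell from 46.6 ± 6.31 to 30.6 ± 3.56 CPM (−0.61, adjusted p = 0.00401). Aldh1l1, the folate-linked formyl dehydrogenase, fell from 208 ± 26.0 to 144 ± 15.4 CPM (−0.53, adjusted p = 0.00544). Aldh3a2, the fatty aldehyde dehydrogenase, fell from 114 ± 7.28 to 93.0 ± 5.39 CPM (−0.29, adjusted p = 0.0208).

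Of the polyol, fructose and ascorbate genes 4 of 11 were lower and none higher (median −0.30), or 3 lower and 1 higher after rescaling to the hepatocyte markers. A gene also passed as higher without the low-count filter, with at least 10 counts in every library, with the identification range as a covariate, with DESeq2, and without WT replicate 2 or Mir483Pat-KO replicate 3. Glyctk, the glycerate kinase of fructose breakdown, fell from 151 ± 6.35 to 107 ± 13.9 CPM (−0.50, adjusted p = 0.00432). Gulo, the last enzyme of ascorbate synthesis, fell from 53.4 ± 10.7 to 32.4 ± 4.68 CPM (−0.72, adjusted p = 0.00563), while Akr1a1, earlier in that route, had the −0.03 given above.

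Of the bile acid synthesis genes 4 of 12 were lower and none higher (median −0.30). The count was 2 without Mir483Pat-KO replicate 4, 7 with the identification range as a covariate and 3 after rescaling to the hepatocyte markers. Cyp27a1, the sterol hydroxylase of the acidic pathway, fell from 60.3 ± 9.64 to 38.2 ± 4.19 CPM (−0.66, adjusted p = 0.00384). Slc27a5, which links bile acids to coenzyme A, fell from 93.8 ± 19.6 to 62.2 ± 4.60 CPM (−0.59, adjusted p = 0.00966). Hsd3b7, which acts just before Akr1d1, fell from 5.53 ± 1.11 to 3.25 ± 0.523 CPM (−0.77, adjusted p = 0.0185), and without Mir483Pat-KO replicate 4 its adjusted p was 0.0509.

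The steroid metabolism list had none of 13 genes lower and 1 higher, Hsd17b2, which oxidises estradiol (89.2 ± 7.39 to 109 ± 5.94 CPM, 0.29, adjusted p = 0.0267). Hsd17b2 did not pass in 8 of the 10 fits that left out 1 library, where its adjusted p ranged from 0.0146 to 0.0839. It also did not pass with the identification range as a covariate or in the lower range alone. The list had 2 genes lower after removal of GC and length trends. It had 1 gene lower after rescaling to the hepatocyte markers, with no low-count filter, and when Mir483Pat-KO replicate 1 or either of WT replicates 2 and 3 was left out.

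The lists of nuclear receptor and stress response targets were included because Akr1b7 is a known target of several lipid-sensing receptors. Targets that a receptor raises and targets that it represses were not separated, so these counts do not give the direction of receptor activity. Of targets of FXR, the bile acid receptor, 5 of 11 were lower, none was higher and all 11 were below 0 (median −0.54). The count was 5 after rescaling to the hepatocyte markers as well. Apoc3, an apolipoprotein of triglyceride-rich particles, fell from 55.9 ± 5.33 to 19.4 ± 4.68 CPM (−1.53, adjusted p = 1.83e-05). Abcb11 fell from 295 ± 45.8 to 180 ± 28.6 CPM (−0.71, adjusted p = 0.00380). Slc27a5, given above, counted in this list too.

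Of targets of PXR and CAR, the xenobiotic receptors, 5 of 17 were lower and none higher (median −0.30). Without Mir483Pat-KO replicate 4 the count was 3 and with GC and length offsets it was 8, it was 9 without the low-count filter, and after rescaling to the hepatocyte markers 4 were lower and 2 higher. Ugt1a1, which conjugates bilirubin and shares exons with other Ugt1a genes, fell from 58.1 ± 15.4 to 19.9 ± 9.35 CPM (−1.55, adjusted p = 0.00384). Nr1i3, which encodes CAR itself, fell from 36.8 ± 3.92 to 20.1 ± 5.83 CPM (−0.87, adjusted p = 0.00455). Ces2a, a carboxylesterase, fell from 124 ± 12.9 to 92.7 ± 11.5 CPM (−0.42, adjusted p = 0.0150).

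Of targets of LXR, the oxysterol receptor, 3 of 15 were lower and none higher (median −0.19). The count was 0 without WT replicate 4 or 5 or Mir483Pat-KO replicate 2 or 4, 1 without WT replicate 1 or Mir483Pat-KO replicate 5, and 5 without WT replicate 2 or Mir483Pat-KO replicate 1. It was 6 without the low-count filter, 5 with DESeq2 and 1 with GC and length offsets, and after rescaling to the hepatocyte markers 1 was lower and 2 were higher. Apoe fell from 4438 ± 561 to 3532 ± 180 CPM (−0.33, adjusted p = 0.0350), Abcg5, a sterol exporter subunit, from 3.69 ± 1.13 to 2.01 ± 0.484 CPM (−0.87, adjusted p = 0.0401), and Srebf1, a regulator of lipid synthesis, from 194 ± 28.2 to 142 ± 24.6 CPM (−0.44, adjusted p = 0.0408). Leaving out single libraries, Apoe did not pass in 6 of 10 fits (adjusted p up to 0.0918), Abcg5 in 7 (up to 0.0820) and Srebf1 in 7 (up to 0.104). Of targets of NRF2, the oxidative stress regulator, 1 of 25 was lower, Gsta4 (15.5 ± 2.57 to 11.2 ± 1.76 CPM, −0.47, adjusted p = 0.0473), and it did not pass in 8 of 10 such fits (up to 0.109). Without WT replicate 2 the count of that list was 3 and without Mir483Pat-KO replicate 1 it was 2, as it was without the low-count filter, with DESeq2 and with GC and length offsets, and after rescaling to the hepatocyte markers none was lower and 4 were higher. The median of the NRF2 list was −0.018, the nearest to 0 of the 8 lists.

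**Figure D5:**
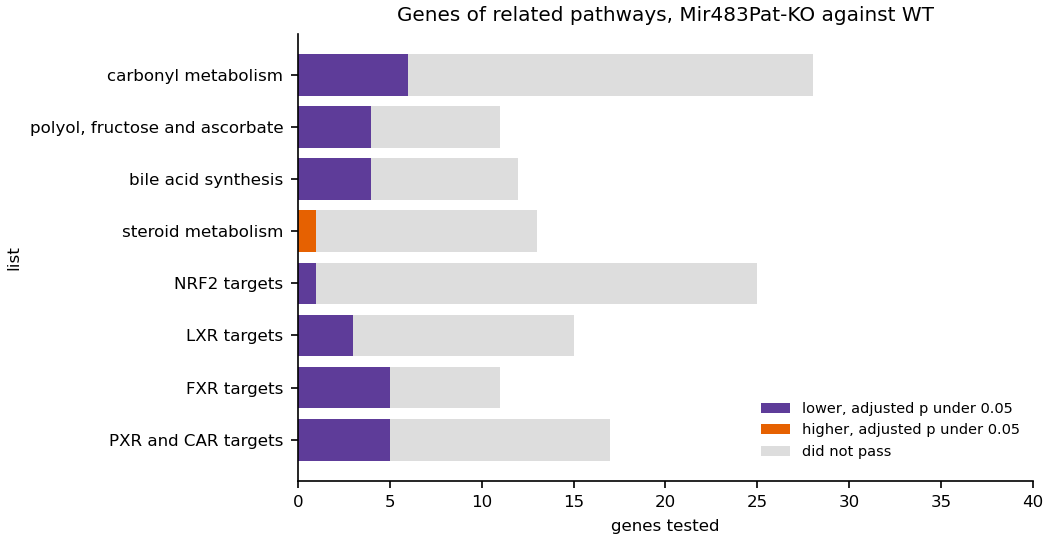
Number of genes tested in each of the 8 pathway lists, split into those lower, those higher and those that did not pass at an adjusted p under 0.05 (Mir483Pat-KO against WT, 5 libraries each). The FXR list has the highest share lower (5 of 11) and the NRF2 list 1 of 25.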

How the data were processed

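RNA from 10 fetal livers was sequenced as paired reads of 50 bases from stranded, poly(A)-selected libraries. The authors aligned reads to GRCm38 with STAR and deposited 1 table of whole-number read counts per Ensembl gene, not normalized; the counting rule for strand and for reads matching several genes is not given in the sources used here. Of 55401 rows, 55141 matched a symbol. Counts were scaled by TMM to CPM, filtered by expression, and fitted with the quasi-likelihood test of edgeR 4.0.16 (R 4.3.3) on genotype alone, with Benjamini-Hochberg adjustment over 14098 genes. The deposited counts gave 10831350 to 14765880 per library, and counts below about 10 carry wide counting error. On simulated data with 200 genes changed 2-fold, 87% were recovered and 4.92% of calls were unchanged genes. The simulated counts held no identification ranges, litters or GC trends and no smaller change, so these rates need not hold for the data. Litters of the libraries are not given, so p-values measure the spread between these samples.

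Transcript lengths, coding sequences and 3′ UTRs came from GENCODE M21 (GRCm38), the UTR from the transcript with the longest coding sequence, and coding identities from pairwise alignment (Biopython 1.88). Promoters and microRNAs came from RefSeq, and 15 of the 17 Akr genes had a promoter entry (Akr1b3 and Akr1c20 had none). Level rankings used CPM per kb. Within-group correlations used log2 CPM with a prior count of 2. The ranking over all genes took those with a mean log2 CPM of at least 1, and the Akr genes were given at any level. The rule for names took all 10 chosen genes, other Akr genes that were tested, up to 3 genes with the smallest p from each pathway list among those passing, and the 5 highest and 3 lowest correlations with Akr1b7. One gene named by this rule is not reported here. Bpgm, Slc35b4, Cald1, Gm13857, Alb, Ttr, Hnf4a and the marker genes at or near 0 were named after their values were seen. The chosen genes and the lists were set with earlier results of these data, and the study's paper, known. Alternatives were RLE scaling, DESeq2 1.42.0, filters, a replicate block, the identification number range, GC and length offsets (mgcv 1.9.3) and each library left out; rescaling to hepatocyte markers, correlations within identification ranges and the longest coding transcript as length were added after seeing the data.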

Additional observations from a re-analysis of the deposited data

Results flagged for a closer look

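In 6 of 84 groups of 5 libraries the highest or lowest library stood apart from the others by Dixon's test, and chance alone flags about 1 group in 20. Among the aldo-keto reductases, WT replicate 2 was high for Akr1c12 at 24.0 CPM, where the next library had 20.9 CPM, and for Akr1c19 at 21.2 CPM, where the next had 12.4 CPM. Among pathway genes, Mir483Pat-KO replicate 1 was high for Slc27a5 at 70.3 CPM, with the next at 61.4 CPM, and WT replicate 1 was high for Abcg5 at 5.68 CPM, with the next at 3.47 CPM. The exocrine pancreas marker sum was high in WT replicate 3 at 87.4 CPM, with the next at 36.3 CPM, and low in Mir483Pat-KO replicate 1 at 18.4 CPM, with the next at 26.1 CPM. The pancreas marker Pnlip was at 0 in all libraries, and the part of this signal in the results was not tested.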

How the results depend on the processing

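The log2 fold change of Akr1b7 lay between −1.63 and −1.17 over 19 alternatives. Genes called lower numbered 123 and genes called higher 50; without the low-count filter these were 222 and 99, in the lower identification range alone 19 and 2, and leaving out single libraries 80 to 171 and 17 to 66. Genes called higher were 101 with the identification range as a covariate, 29 with GC and length offsets and 298 after rescaling to hepatocyte markers. Listed pathway genes that passed as lower, 27 in the report, were 42 without the low-count filter, 46 with the replicate block, 1 in the lower identification range alone and 14 to 36 with single libraries left out. Those that passed as higher, 1 in the report, were 2 without the filter, with at least 10 counts in every library, with the replicate block and with DESeq2, 0 in the lower identification range alone, 10 after rescaling to hepatocyte markers and 0 to 1 with single libraries left out. The cause of these shifts was not tested; the lower range alone and the fits without a library hold fewer samples.

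After rescaling to hepatocyte markers the log2 fold change was 0.13 for Akr1a1, −0.12 for Akr1c12, 0.10 for Akr1c13 and 0.021 for Akr7a5, and with GC and length offsets it was 0.020 for Akr7a5. Levels in WT, per kb of the longest transcript and of the longest coding transcript, were 105 and 165 CPM for Akr1a1 and 2.09 and 7.57 CPM for Akr1b3, and both were 26.2 CPM for Akr1c13, 25.0 CPM for Akr7a5 and 25.1 CPM for Akr1c6.

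Same-numbered libraries deviated together with a mean correlation of 0.087, from −0.050 to 0.261, against −0.022 for other pairs. Of the 10 libraries 5 correlated best with their own number in the other group. The labels give no pairing, and whether same-numbered libraries share a litter or batch was not tested. The replicate block gave 168 genes called lower and 70 called higher, passed as lower 3 genes of the steroid list, 6 of the LXR, 4 of the NRF2 and 8 of the PXR and CAR list, passed 1 polyol list gene as higher, and left the log2 fold change of Akr1b7 at −1.44. Of the chosen genes Akr1b8 rested on the fewest reads, 54 to 130 counts per library, and Akr1c18 had 10 to 39.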
